A study of Homo sapiens with 3 samples.

Results

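SCCPDH, PLD1 and ASAP2 are the genes whose spans hold the shared summits in places 2, 3 and 4 of the whole experiment, and they are described here through every summit that the fusion protein HA-PSF-TFE3 left in them. The genes were chosen by the scores of those strongest summits, so the scores and ranks of the top summits are given as a description and were not tested. Each gene was taken with about 10 kb on either side, and the 3 windows held 32 of the 44983 summits of the replicate 8 list and 24 of the 28084 summits of the replicate 9 list.

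Binding was mapped by ChIP-seq in HK-2 cells, an established human proximal tubule line that carried an HA-PSF-TFE3 construct inducible by doxycycline. Every library came from cells given 0.2 µg/ml doxycycline for 24 h, namely the ChIP libraries labelled 8 and 9, which per the methods were made from separate clones, and 1 library of input DNA. No uninduced cells and no cells without the construct were analysed here, so all values describe a single condition with 2 ChIP libraries. A summit is the base with the strongest enrichment inside a peak, with 1 summit per peak, and its score is −log10 of the q-value against the input. Scores were not normalised between libraries, the depth behind them is not given by the lists, and lists of this kind hold no expression values against which the label of the cells could be checked.

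TFE3 belongs to the MiT/TFE family of basic helix-loop-helix leucine zipper factors, which bind E-box sequences and are known for driving lysosomal and autophagy genes. In the fusion, the amino-terminal part of the splicing factor SFPQ, also called PSF, replaces the start of TFE3, and such fusions occur in renal cell carcinoma and in PEComa. None of the genes described here is a classical lysosomal gene. SCCPDH encodes a protein related to saccharopine dehydrogenase. PLD1 encodes phospholipase D1, which releases phosphatidic acid from phosphatidylcholine and is activated by ARF GTPases. ASAP2 encodes an ARF GTPase-activating protein with SH3, ankyrin repeat and PH domains, so PLD1 and ASAP2 both act around ARF GTPases at membranes.

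The strongest summit lay well inside each of the genes and far from where the gene begins. Gene starts were read from the windows, which are rounded to the kb, and are therefore exact to about 1 kb on hg19. The top summit lay 25.4 ± 0.02 kb (SD, n = 2) into SCCPDH, 190.1 ± 0.02 kb into PLD1 and 180.8 ± 0.02 kb into ASAP2. As a share of the gene's length these places were 56.4% for SCCPDH, 90.1% for PLD1 and 90.4% for ASAP2. In each gene the strongest site was thus nearer to the end than to the start, in SCCPDH by the least. Exons, introns and internal transcript starts were not placed, because the annotation at hand is of hg38.

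**Figure D1:**
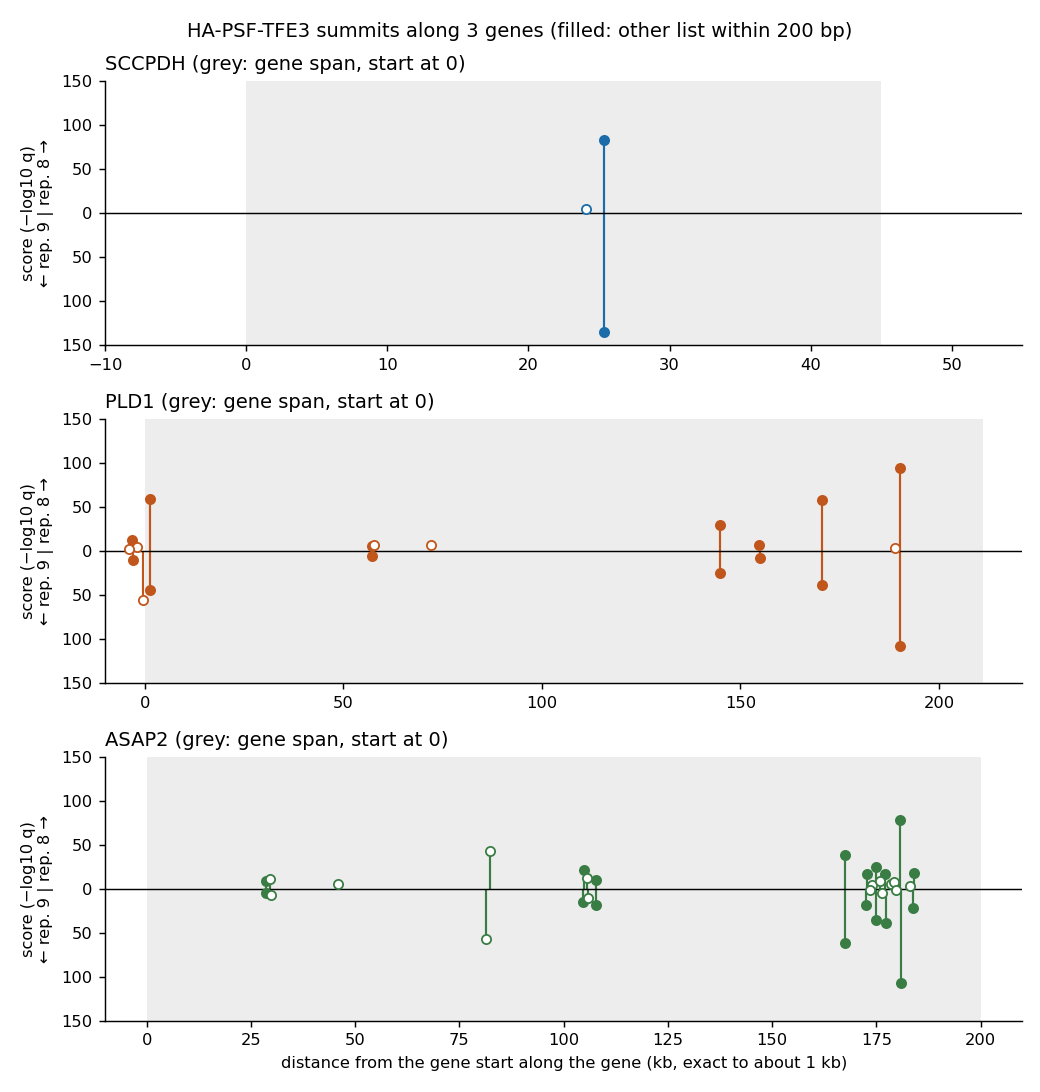
Summits of HA-PSF-TFE3 along SCCPDH, PLD1 and ASAP2, with distance from the gene start in kb on the horizontal axis and the score (−log10 q) on the vertical axis, replicate 8 upwards and replicate 9 downwards. Filled points were matched within 200 bp in the other library, open points were not, and grey marks the gene span. SCCPDH shows a single tall site, PLD1 shows tall sites at both ends of the gene, and ASAP2 shows a dense cluster around 180.8 kb.

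In SCCPDH the top summit stood at position 246912353 of chromosome 1 in replicate 8, with a score of 83.1 and rank 6, and at 246912384 in replicate 9, with a score of 135 and rank 2. In PLD1 it stood at 171338936 of chromosome 3 in replicate 8, with a score of 93.7 and rank 2, and at 171338913 in replicate 9, with a score of 108 and rank 17. In ASAP2 it stood at 9526739 of chromosome 2 in replicate 8, with a score of 78.1 and rank 9, and at 9526766 in replicate 9, with a score of 108 and rank 18. The libraries therefore placed these sites 23 to 31 bp apart. In the order by the worse of the pair's ranks, the pair just ahead of the genes had scores of 107 and 145, and the pair just behind had scores of 70.5 and 106, with ranks of 26 and 22.

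SCCPDH held almost nothing beside its top summit. Replicate 9 had no other summit in the window. Replicate 8 had 1, at 246911067, with a score of 4.91 and rank 32723, so that the top score was 16.9 times the next. That weak summit lay 1.29 kb from the top summit and had no replicate 9 summit within 200 bp. No summit of either library lay within 5 kb of the gene start, and the nearest summits beyond the window were 3.56 kb past its far edge in replicate 8, with a score of 6.01, and 3.57 kb past it in replicate 9, with a score of 9.53.

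PLD1 held 12 summits in replicate 8 and 8 in replicate 9, a mean of 10 ± 2.83 (SD, n = 2), and it was the only one of the genes with summits at its start. A shared summit lay 1.30 kb into the gene in replicate 8, at 171527705, with a score of 58.6 and rank 134. Its replicate 9 partner, at 171527630, had a score of 44.7 and rank 2091. Thus the start of PLD1 carried a site among the strongest of the replicate 8 list, though 188.8 kb from the gene's top summit.

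Further summits surrounded that site. Replicate 9 had its second highest PLD1 score, 55.3 with rank 1156, at 171529477, which is just upstream of the start as read from the window and within the rounding of it. No replicate 8 summit lay within 200 bp of it, and the nearest was 1463 bp away. Farther upstream, a shared summit about 3 kb before the gene, at 171532103 in replicate 8 and 171531957 in replicate 9, had scores of 11.9 and 10.2. Within 5 kb of the start the window held 4 summits in replicate 8 and 3 in replicate 9, whereas SCCPDH and ASAP2 had 0 in each library.

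Inside PLD1 the shared summits were spread along the gene. Apart from the top and the site near the start, the strongest of them had scores of 58.0 (rank 153) and 38.5 (rank 2891). It lay 170.5 kb from the start in replicate 8 and 170.4 kb in replicate 9. A site 144.8 kb from the start in replicate 8 had scores of 29.1 and 25.4. Both of these lay nearer to the top summit than to the start of the gene. The remaining shared pairs were weak, with scores of 6.28 and 8.25 at 171374359 and 171374175, and of 5.91 and 5.97 at 171471719 and 171471713. The longest stretch of the gene without a summit measured 72.7 kb in replicate 8 and 87.6 kb in replicate 9.

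The replicate 8 list added 5 PLD1 summits that replicate 9 lacked within 200 bp. Their scores ran from 2.64 to 6.43, with a median of 4.66, all below the median of 8.20 over the whole replicate 8 list. The top score of PLD1 was 1.60 times the next in replicate 8 and 1.95 times the next in replicate 9. In both libraries the next highest summit was at the start of the gene, 188.8 and 190.6 kb away from the top. The highest scores of each library thus stood near opposite ends of PLD1. The next highest was a different summit in each library, and that of replicate 9 had no replicate 8 summit within 200 bp. In replicate 8 it scored 58.6, barely above the 58.0 of the site 170.5 kb from the start.

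ASAP2 held the most summits of the 3 genes, 18 in replicate 8 and 15 in replicate 9, a mean of 16.5 ± 2.12 (SD, n = 2), and all of them lay within the gene span. None was near the start, the closest being 28.7 kb into the gene in both libraries. Per 100 kb of gene this is 9.0 summits in replicate 8 and 7.5 in replicate 9, whereas the whole lists held 1.52 and 0.951 per 100 kb between the first and the last summit of each chromosome. PLD1 had 4.27 and 2.84 by the same measure, and SCCPDH 4.44 and 2.22 over its shorter span. Each gene was picked for holding a best-ranked shared summit, which raises such densities. The values of the whole lists are not limited to genes, and no test was made of the densities.

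The ASAP2 summits were concentrated around the top one. Within 10 kb of it lay 9 other summits in replicate 8 and 7 in replicate 9, and together with the top these covered 11.3 and 11.2 kb, with a median gap of 1.17 and 1.35 kb between neighbours. Of these other summits, 4 in each library were shared. The cluster's second site scored 24.1 in replicate 8, at 9520981, and 39.4 in replicate 9, at 9523227, so the top summit was 3.24 and 2.73 times as high as anything else within 10 kb. The second site was not the same summit in the 2 libraries, since the replicate 8 partner of the latter, at 9523083, scored 16.1.

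The shared sites within this cluster, beside the top, had replicate 8 and replicate 9 scores of 16.1 and 18.1 at 172.7 kb from the start (172.6 kb in replicate 9), 24.1 and 35.0 at 175.0 kb (174.9 kb), 16.1 and 39.4 at 177.1 kb (177.2 kb), and 18.0 and 22.5 at 184.0 kb (183.8 kb). Just before the cluster, 167.4 kb into the gene, a shared summit scored 38.6 with rank 1431 in replicate 8 and 62.0 with rank 762 in replicate 9. It gave the second highest score of the gene in replicate 9, and the libraries placed it 8 bp apart.

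Away from the cluster, ASAP2 had sites in the first and middle parts of the gene. A pair 28.7 kb from the start scored 8.61 and 5.14. A pair 104.9 kb from it in replicate 8 (104.7 kb in replicate 9) scored 21.5 and 15.3, and a pair 107.8 kb from it scored 10.02 and 19.1. From there to the site at 167.4 kb the gene was empty for 59.6 kb in both libraries. In the first part of the gene each library also had a strong summit that was not shared within 200 bp. That of replicate 8 lay at 9428280 with a score of 42.4 and rank 940, that of replicate 9 lay at 9427284 with a score of 57.6 and rank 991, and these positions are 996 bp apart. These were the highest unshared scores of ASAP2 in either list. The widths of the peaks are not part of these lists, so whether the 2 summits belong to overlapping peaks was not tested. The top ASAP2 score was 1.84 times the next in replicate 8 and 1.74 times the next in replicate 9.

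**Figure D2:**
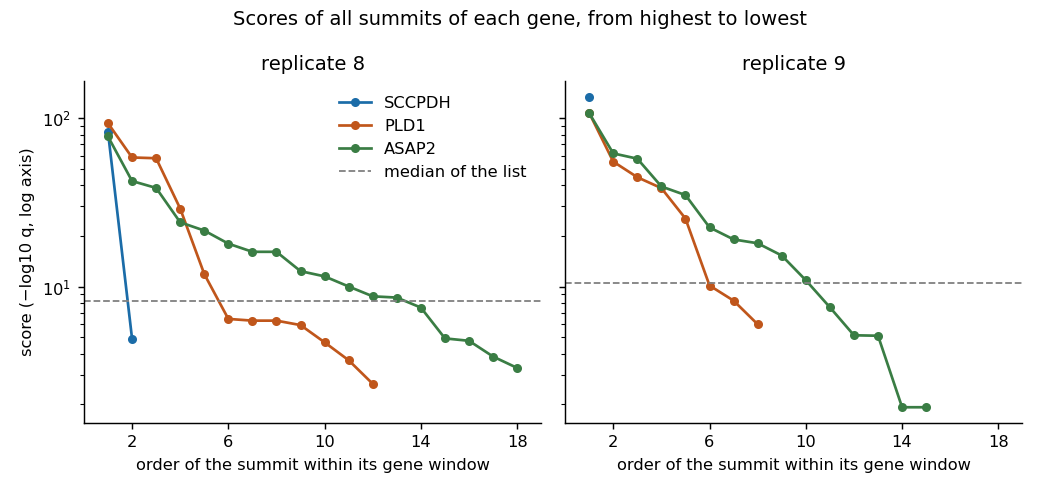
Scores of all summits in the windows of SCCPDH, PLD1 and ASAP2, from the highest to the lowest within each gene, on a log axis, for replicate 8 (left) and replicate 9 (right), with the median of each whole list dashed. SCCPDH drops at once in replicate 8 and has 1 summit in replicate 9, PLD1 falls off after 4 or 5 strong summits, and ASAP2 declines slowly.

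Side by side, the ratio of the top score to the next was 16.9 in SCCPDH (replicate 8 alone), 1.78 ± 0.25 (SD, n = 2) in PLD1 and 1.79 ± 0.07 in ASAP2. These are ratios of −log10 q-values whose numerators chose the genes, so they are a description only. In SCCPDH the other score of 4.91 was below the replicate 8 list median of 8.20. In PLD1, 4 of the 11 other summits of replicate 8 and 4 of the 7 of replicate 9 scored above the median of their whole list. In ASAP2 these counts were 12 of 17 and 9 of 14. The larger share in ASAP2 was seen in replicate 8, whereas the shares in replicate 9 were close to each other.

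To place the genes among sites of like strength, their top summits were set beside all 100 shared pairs with the best worse rank, a comparison chosen after the values were seen. Over these pairs, the number of other summits within 10 kb had a median of 1 in each library, and 32 pairs had 0 in replicate 8 and 39 in replicate 9. The ASAP2 top summit, with 9 and 7, had more than each of the other 99 pairs in both libraries. Within 50 kb it had 11 and 8 other summits, where 7 pairs had more in replicate 8 and 6 in replicate 9, so its place at the head of the pairs held for the shorter distance alone. PLD1 and SCCPDH, with 1 in replicate 8 and 0 in replicate 9, sat at or below the median.

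Relative height was compared over a wider range, as the ratio of each of these summits to the highest other summit within 50 kb. The ratio was 13.8 for SCCPDH in replicate 8 and 14.2 in replicate 9, beside medians of 2.62 over the 95 pairs and 3.74 over the 92 pairs with another summit in range. In replicate 8, 1 pair had a higher ratio than SCCPDH, and in replicate 9 there were 9. For ASAP2 the ratios were 2.02 and 1.74, and for PLD1 1.62 and 2.80, all under the medians. Since a summit's own score enters this ratio and chose the pairs, it describes them only.

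**Figure D3:**
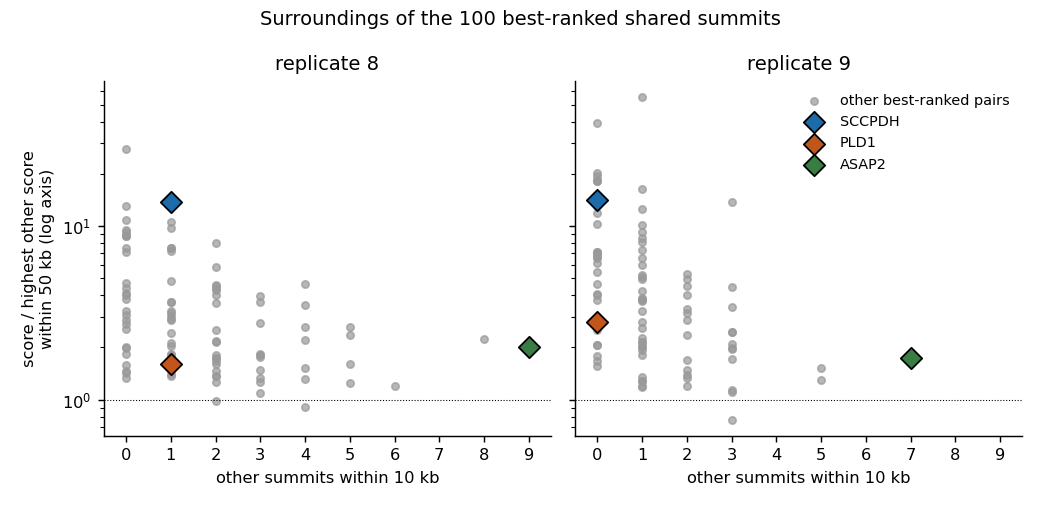
Surroundings of the 100 best-ranked shared summits, with the number of other summits of the same list within 10 kb on the horizontal axis and the ratio of the summit's score to the highest other score within 50 kb on a vertical log axis, for replicate 8 (left) and replicate 9 (right). Pairs with no other summit within 50 kb have no ratio and are not drawn. ASAP2 lies at the far right with 9 and 7 neighbours, and SCCPDH lies high with ratios of 13.8 and 14.2.

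Recurrence between the libraries could be read from the other summits of the genes, which the choice of genes did not use. With the top summits left out, 14 of 29 replicate 8 summits had a replicate 9 summit within 200 bp (48.3%, 95% Wilson interval 31.4 to 65.6%), where 47.9% of the whole list did. In the other direction it was 14 of 21 (66.7%, 95% Wilson interval 45.4 to 82.8%), where 76.6% of the whole list did. At this distance, and with all scores kept, both shares were near those of the lists. The intervals cover counting error only, and neighbouring summits are not independent. Allowing 2000 bp, an alternative added after the data were seen, raised the shares to 93.1% and 100% (27 of 29 and 21 of 21), beside 66.5% and 93.8% of the whole lists. The other list kept its top summits here. The replicate 8 summits at 246911067 in SCCPDH and 171340020 in PLD1 were matched only to those, 1317 and 1107 bp away. Neighbours in the ASAP2 cluster lay a median of 1.17 and 1.35 kb apart, so matches at 2000 bp there cannot show recurrence of single sites. When summits under a score of 10 were dropped from both lists, the shares within 200 bp were 78.6% in each library (11 of 14), beside 58.8% and 76.2% over the whole lists. The replicate 8 share thus lay near that of its list under the first setting and above it under the latter 2. With the replicate 9 list left whole, 11 of 14 replicate 8 summits scoring at least 10 were again shared, beside 79.6% of the list. The excess over 58.8% was therefore seen only with both lists cut, and none of these differences was tested.

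Recurrence was more frequent among the stronger sites, as it was in the whole lists. Among summits with a score of at least 10, 11 of 14 were shared in either library, beside 79.6% of such summits in the whole replicate 8 list and 86.6% in that of replicate 9. Below 10, 3 of 15 in replicate 8 and 3 of 7 in replicate 9 were shared, beside 25.2% and 66.1%. The median score was 17.1 for shared and 4.92 for unshared summits in replicate 8, and 20.8 and 7.54 in replicate 9. Medians of shared and unshared summits over the whole lists are not given here. The unshared summits with the highest scores were the one at the start of PLD1 (55.3) and the ASAP2 summits 996 bp apart (42.4 and 57.6).

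Across the 14 pairs of other summits, which come from the same 2 libraries and from 2 genes, the scores had a Spearman's rho of 0.834, and over all 21518 pairs of the lists it was 0.728. The 6 PLD1 pairs kept the same order in both libraries, with a rho of 1, and the 8 ASAP2 pairs had a rho of 0.599. SCCPDH had no pair besides its top summit. The median distance within these pairs was 79 bp, whereas it was 52 bp over all pairs.

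Because scores are not normalised, levels were compared as percentiles among all paired summits of a library. Of the 14 pairs, 9 stood higher in replicate 9 than in replicate 8, beside 50.6% of all pairs. In ASAP2 it was 6 of 8, with a median shift of 9.22 percentile points, and in PLD1 it was 3 of 6, with a median shift of -2.49 points. Over all pairs the quartiles of the shifts of single pairs were -12.8 and 13.2 points. Of the single sites, ASAP2 at 107.8 kb stood at percentile 30.8 in replicate 8 and 66.7 in replicate 9, ASAP2 at 177.1 kb at 55.9 and 88.4, and PLD1 at 171374359 at 14.1 and 33.1, and these 3 were outside the quartiles. The 3 PLD1 pairs with the highest scores after the top summit stood lower in replicate 9, with shifts of -11.4, -8.405 and -8.08 points, all inside the quartiles. Those at 170.5 and 1.30 kb from the start stood at percentiles 99.3 and 99.4 in replicate 8, so they could hardly rise. With a single library of each clone, a difference between clones and one between libraries cannot be told apart.

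**Figure D4:**
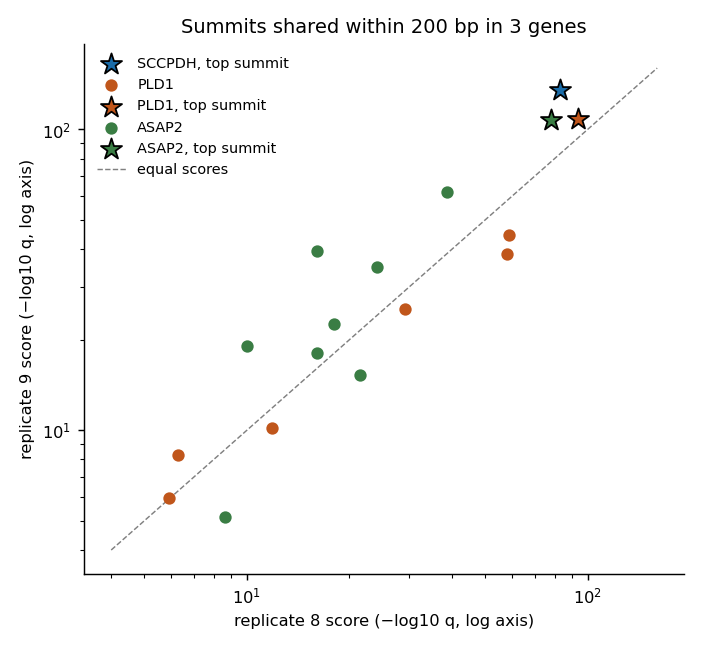
Scores of the summits shared within 200 bp in SCCPDH, PLD1 and ASAP2, with replicate 8 on the horizontal and replicate 9 on the vertical axis, both log axes of −log10 q, stars for the top summits and a dashed line at equal scores. All 3 stars lie above the line, most ASAP2 points lie above it, and the stronger PLD1 points lie below it.

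The DNA just before each gene is shown to compare PLD1, which had summits at its start, with the genes that had none there. The sequences are those of RefSeq on GRCh38.p14, for which all 3 genes were matched by symbol, and each runs 5′ to 3′ along its gene over the 250 bases before the RefSeq start. They lie at chr3:171810484-171810733 on the minus strand for PLD1, at chr1:246724159-246724408 on the plus strand for SCCPDH and at chr2:9206562-9206811 on the plus strand for ASAP2. These positions belong to another build than the summits and cannot be compared with theirs. Capitals mark CG dinucleotides.
PLD1: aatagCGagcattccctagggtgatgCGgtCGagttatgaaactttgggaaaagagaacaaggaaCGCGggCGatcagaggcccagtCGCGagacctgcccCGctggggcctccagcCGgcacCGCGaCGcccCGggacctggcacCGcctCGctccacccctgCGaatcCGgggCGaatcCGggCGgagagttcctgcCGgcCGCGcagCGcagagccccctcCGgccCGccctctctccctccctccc
SCCPDH: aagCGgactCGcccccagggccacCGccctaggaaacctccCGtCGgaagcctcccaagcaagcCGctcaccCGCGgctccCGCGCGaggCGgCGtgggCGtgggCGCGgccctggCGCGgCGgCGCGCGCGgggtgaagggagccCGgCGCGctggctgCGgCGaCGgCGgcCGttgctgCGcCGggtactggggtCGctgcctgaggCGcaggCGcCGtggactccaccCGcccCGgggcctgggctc
ASAP2: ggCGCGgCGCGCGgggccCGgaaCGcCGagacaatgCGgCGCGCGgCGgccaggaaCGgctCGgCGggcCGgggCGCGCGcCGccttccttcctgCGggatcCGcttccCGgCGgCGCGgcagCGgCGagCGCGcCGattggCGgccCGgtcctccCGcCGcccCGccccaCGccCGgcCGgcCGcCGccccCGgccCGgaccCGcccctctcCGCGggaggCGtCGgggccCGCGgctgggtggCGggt

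All of them were rich in CG dinucleotides, with 27 in PLD1, 39 in SCCPDH and 52 in ASAP2, beside a median of 11 over 35116 promoters of the same length. At least 27 were found in 17.7% of all promoters, at least 39 in 2.65% and at least 52 in 0.0712%. PLD1 had the fewest of the 3. A relation between these counts and the summits was not tested. The E-box letters CACGTG and CATGTG and the AP-1 letters TGACTCA or TGAGTCA were searched on both strands of these bases and the first 50 of the gene, and none occurred in any of the 3, where 7.26%, 11.1% and 4.95% of all promoters held them. The general E-box CANNTG, which takes in both CACGTG and CATGTG, was searched afterwards. It occurred 1 time in SCCPDH, 1 time in PLD1 and 0 times in ASAP2, each time outside the bases shown. Of all promoters, 68.7% held it. A missing match says only that these letters are not in this window, and the DNA under the summits themselves was not read, since no sequence of hg19 was used here.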

How the data were processed

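HA-PSF-TFE3 ChIP-seq summits of 2 libraries (replicates 8 and 9, from their titles) were analysed, and the input library had no list of its own. The authors called peaks with MACS2 in each library against the input without pooling and deposited 1 summit per peak, scored as −log10 of the q-value. The study's descriptions name both hg19 and hg38, and give a cutoff on p in 1 place and on q in another, the latter 0.05, which is a score of 1.30. A filter on fold enrichment is named as well. The lowest deposited scores were 1.37 and 1.33. The labels name hg19, and 364 summits of replicate 8 and 262 of replicate 9 had positions larger than the hg38 length of their chromosome, so the lists were taken as hg19 and no coordinate was converted.

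The members and lists were chosen with earlier results of these data known. Gene edges were the given windows less 10 kb, and they implied gene lengths of 45, 211 and 200 kb for SCCPDH, PLD1 and ASAP2, beside 43.7, 210.5 and 198.9 kb in the GENCODE hg38 annotation, from which strands were taken. Positions count from 1. Summits were shared if the other list had one within 200 bp, and pairs were mutually nearest summits within it. The genes named are SCCPDH, PLD1 and ASAP2, each with its top, shared and highest unshared summits. Relatives of these genes were not counted, for want of an hg19 annotation here. No test was made, as there was a single condition. Distance functions were tested on simulated data. The alternatives were minimum scores, merging of summits, other distances, gene spans without flanks, starts moved by 1 kb, equal list lengths and leaving out each library. Python 3.11.15, numpy 2.4.6, pandas 2.3.3, scipy 1.17.1 and matplotlib 3.10.9 were used.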

Additional observations from a re-analysis of the deposited data

How the results depend on the processing

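The counts of summits in PLD1 and ASAP2 fell to means of 5.5 and 10.5 with a minimum score of 10, and stayed within 1.5 times their values with a minimum score of 5, after merging summits under 500 bp apart and without the flanks. Single libraries gave 1 to 2 summits in SCCPDH, 8 to 12 in PLD1 and 15 to 18 in ASAP2. The ratio of the top score to the next moved from 1.79 to 1.88 in ASAP2 when the next summit had to be shared, and from 1.78 to 2.01 in PLD1, where leaving out the flanks also gave 2.01. From single libraries it was 1.60 to 1.95 in PLD1 and 1.74 to 1.84 in ASAP2, and in SCCPDH it exists in replicate 8 alone. With no shared summit besides the top, the ratio among shared summits has no value in SCCPDH.

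Moving the gene start by 1 kb put the top summit 24.4 or 26.4 kb into SCCPDH, 189.1 or 191.1 kb into PLD1 and 179.8 or 181.8 kb into ASAP2, as follows from its construction. The single libraries gave 25.35 to 25.38 kb, 190.06 to 190.09 kb and 180.74 to 180.77 kb.

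The shares of other summits that were shared moved with the distance allowed. Within 50 bp they were 20.7% in replicate 8 (whole list 23.3%) and 28.6% in replicate 9 (37.4%), and within 500 bp 65.5% (55.5%) and 85.7% (87.7%). Within 1000 bp they were 75.9% (60.9%) and 95.2% (91.3%), and within 2000 bp 93.1% (66.5%) and 100% (93.8%), distances added after the data were seen. The shares at 2000 bp include matches to top summits of the other list. In replicate 8 the share became 66.7% (54.4%) once scores under 5 were dropped and 78.6% (58.8%) once those under 10 were, and in replicate 9 73.7% (76.5%) and 78.6% (76.2%). Lists of equal length gave 65% and 61.9%, with 66.7% of either whole list. The rho of scores was 0.886 over 6 pairs within 50 bp, 0.882 over 18 pairs within 500 bp and Pearson's r of log10 scores was 0.848. A share or rho cannot be had from 1 library. The study states the sequencing depth of each library, but depth was not used here, so an absent summit may have been just under the authors' threshold.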
